A study of Mus musculus with 3 samples.

Results

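10 loci of the p53 and cell death pathway were examined in the open chromatin of long-term haematopoietic stem cells (LT-HSCs): the p53 gene *Trp53* and its regulators *Mdm2* and *Mdm4*, the survival genes *Bcl2*, *Bcl2l1* and *Mcl1*, and the pro-death genes *Bax*, *Bbc3*, *Pmaip1* and *Bcl2l11*. These 10 genes were listed by name out of 21670 protein-coding genes on chromosomes 1 to 19 and X. The list has no threshold on a measured value, but it was drawn up with earlier results of these data known. Each was measured over its mm10 gene body plus 30 kb on either side, in 500-bp bins. The bone marrow cells came from wild-type C57BL/6 females aged 8 weeks (C57BL/6J in the study's methods). They were enriched for c-Kit and sorted as LSK (lineage-negative, Sca-1+, c-Kit+) CD150+ CD48- CD34- cells. A single DOGMA-seq preparation gave transposed DNA (ATAC), RNA and antibody tags from the same cells, and only the ATAC library is described here. It has no replicate and no second condition, and the labels do not say how many mice were pooled. No test across samples was therefore possible, and the intervals given cover counting error only.

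p53 is a transcription factor that is stabilised after DNA damage and other stress, and that halts the cell cycle or starts apoptosis. MDM2 is the ubiquitin ligase that keeps p53 low, and MDM4 is its relative and partner, which binds p53 and limits its activity. The decision to die is made at the mitochondrial outer membrane by the BCL2 family: BCL2, BCL-XL (from *Bcl2l1*) and MCL1 hold the membrane intact, BAX forms the pores that release cytochrome c, and the BH3-only proteins PUMA (from *Bbc3*), NOXA (from *Pmaip1*) and BIM (from *Bcl2l11*) tip the balance towards pore formation. MCL1 is known to be needed for HSC survival, and *Mdm2*, *Bax*, *Bbc3* and *Pmaip1* are known targets of p53.

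The sequences on which the description below turns are given first, from the GRCm38 (mm10) genome and the RefSeq promoter table of that build. The promoters of *Bax* and *Bbc3* are shown because each holds a match to the p53 site, and those of *Bcl2* and *Mdm2* because they were open and hold none. Each is the 250 bases upstream of the RefSeq start, 5′ to 3′ on the gene's strand, with the matches to the searched motifs, on either strand, in capitals.
*Bax* (chr7:45466899-45467148, minus strand): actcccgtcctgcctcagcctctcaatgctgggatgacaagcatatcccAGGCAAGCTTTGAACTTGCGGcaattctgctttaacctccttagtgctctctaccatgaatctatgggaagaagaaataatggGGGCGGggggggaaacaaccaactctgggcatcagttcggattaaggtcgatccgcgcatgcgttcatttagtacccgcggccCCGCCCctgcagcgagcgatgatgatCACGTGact
*Bbc3* (chr7:16309333-16309582, plus strand): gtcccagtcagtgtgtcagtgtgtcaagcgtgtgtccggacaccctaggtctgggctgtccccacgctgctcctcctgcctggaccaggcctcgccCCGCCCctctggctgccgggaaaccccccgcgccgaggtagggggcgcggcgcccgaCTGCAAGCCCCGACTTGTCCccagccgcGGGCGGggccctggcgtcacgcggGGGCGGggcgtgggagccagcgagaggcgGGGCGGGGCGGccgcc
*Bcl2* (chr1:106714291-106714540, minus strand): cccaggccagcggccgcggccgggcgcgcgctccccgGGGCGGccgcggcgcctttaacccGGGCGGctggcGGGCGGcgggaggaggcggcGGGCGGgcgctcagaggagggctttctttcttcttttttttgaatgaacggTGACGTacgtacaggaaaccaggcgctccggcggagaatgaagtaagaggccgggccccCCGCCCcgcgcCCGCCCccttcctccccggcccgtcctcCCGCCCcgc
*Mdm2* (chr10:117710759-117711008, minus strand): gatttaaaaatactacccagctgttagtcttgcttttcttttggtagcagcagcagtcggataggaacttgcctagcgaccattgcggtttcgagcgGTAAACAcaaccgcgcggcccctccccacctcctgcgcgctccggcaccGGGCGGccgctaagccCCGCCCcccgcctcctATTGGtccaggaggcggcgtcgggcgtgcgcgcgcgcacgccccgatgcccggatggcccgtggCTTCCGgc

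4 distal summits are shown because they are the strongest open sites away from any coding start around their genes. Each is 200 bases around the summit, written on the strand of the member. The capitals mark motif matches, except around *Mdm4*, where they mark a tRNA gene that lies on the other strand.
*Bbc3* distal (chr7:16294926-16295125, plus strand): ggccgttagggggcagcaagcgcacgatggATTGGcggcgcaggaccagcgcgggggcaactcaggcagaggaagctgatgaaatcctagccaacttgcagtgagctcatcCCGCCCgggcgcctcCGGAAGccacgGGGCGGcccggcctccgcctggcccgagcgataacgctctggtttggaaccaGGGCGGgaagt
*Mdm4* distal (chr1:133033837-133034036, minus strand): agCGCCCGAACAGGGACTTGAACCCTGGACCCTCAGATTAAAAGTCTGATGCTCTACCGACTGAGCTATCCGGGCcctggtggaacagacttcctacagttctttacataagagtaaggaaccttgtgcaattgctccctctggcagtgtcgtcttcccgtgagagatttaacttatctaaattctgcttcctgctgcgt
*Mcl1* distal (chr3:95674270-95674469, plus strand): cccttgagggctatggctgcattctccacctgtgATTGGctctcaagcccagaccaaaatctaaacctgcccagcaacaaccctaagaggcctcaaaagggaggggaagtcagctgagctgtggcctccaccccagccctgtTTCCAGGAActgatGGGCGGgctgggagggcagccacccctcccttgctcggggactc
*Bcl2l1* distal (chr2:152789044-152789243, minus strand): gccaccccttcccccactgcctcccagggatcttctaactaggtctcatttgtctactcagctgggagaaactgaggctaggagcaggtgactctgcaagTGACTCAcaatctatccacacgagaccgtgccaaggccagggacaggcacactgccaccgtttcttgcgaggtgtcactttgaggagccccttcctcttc

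The file held 42000180 fragments, of which 37137164 on chromosomes 1 to 19 and X came from the 3108 cells that passed the filter (82.7% of 3757 called cells). A passing cell had a median of 11442 fragments, with a range from 3970 to 194134. A 500-bp bin held 7.25 fragments on average, and a bin or promoter was called open at 5 times that density or more, which is at least 37 fragments in a bin. Of 8 HSC marker genes, 7 had an open promoter, beside 60.9% of coding promoters. The exception was *Ly6a*, which encodes Sca-1, with 32 fragments. *Slamf1* (99) and *Procr* (175) were open but lay below the median coding promoter, which had 223. Of 8 genes of cells that the sort should remove, only *Cd34* was open, with 198 fragments, more than *Slamf1* or *Procr*. The promoters of 3 genes of other tissues held at most 16.

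All 10 members had an open promoter, where 60.9% of coding promoters were open. Promoter level was the number of fragments within 500 bases of the principal annotated start. All 10 lay above the median coding promoter, which had 223 fragments, and 6 lay in the top quartile. The survival promoters ranged from 1697 to 2795 fragments and the pro-death promoters from 550 to 1597, so the groups did not overlap in this window. GC content of the windows ran from 51.9% at *Trp53* to 69.8% at *Bcl2*, beside a median of 55.3% over coding promoters. Fragments shorter than 120 bases made up 42.7% at *Mdm4* to 61.5% at *Mdm2*, beside a median of 49.5% over coding promoters with at least 100 fragments. The part of base composition in the levels was not tested. The mean survival promoter held 2.35 times as many fragments as the mean pro-death promoter (95% counting interval 2.25 to 2.44, by the exact binomial method). This ratio describes 3 genes against 4 in 1 library, and says nothing about other samples.

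*Bcl2l1*, the gene of BCL-XL (chr2:152780668-152831728, minus strand), had the most fragments in this window: 2795 (95% Poisson interval 2692 to 2901), 192 times the genome mean and at percentile 95.7 of coding promoters. A fragment was seen there in 55.3% of passing cells. Within 250 bases of the start it had 1434 (1361 to 1510), below *Mdm2* with 2090 (2001.3 to 2181.6) and *Mcl1* with 1848 (1765 to 1934). *Mcl1* (chr3:95658788-95663176, plus strand) followed among the survival genes with 2146 fragments (2056 to 2239; percentile 92.0), seen in 46.0% of cells. *Bcl2* (chr1:106538178-106714274, minus strand) had 1697 fragments (1617 to 1780; percentile 87.8), seen in 37.6% of cells.

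Among the pro-death genes, *Bax* (chr7:45461697-45466898, minus strand) had the most promoter fragments. It held 1597 fragments (1520 to 1677; percentile 86.6) and was seen in 38.0% of cells. The counting intervals of *Bax* and *Bcl2* overlapped, and within 250 bases of the start the order turned, with 1405 fragments at *Bax* and 1289 at *Bcl2*. The survival and pro-death ranges also overlapped when each cell was thinned to 3000 fragments. *Bcl2l11* (chr2:128126038-128162547, plus strand) held 959 fragments (899 to 1022; percentile 75.5), seen in 23.1% of cells. *Bbc3* (chr7:16308393-16318205, plus strand) held 667 (617 to 720; percentile 68.2), seen in 17.6%. The *Bbc3* value depended on the window and the start: it was 1288 (1219 to 1360) within 1000 bases and 1463 (1389 to 1540) over all annotated coding starts, beside 1687 and 1625 at *Bax* and 1085 and 963 at *Bcl2l11*, so that *Bbc3* passed *Bcl2l11* in both. *Pmaip1*, on the plus strand of chromosome 18, held 550 (505 to 598; percentile 64.6), seen in 14.4%. Without *Bax*, the mean survival promoter held 3.05 times as many fragments as the mean of the 3 BH3-only promoters.

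The p53 axis spanned nearly the whole range. *Mdm2* (chr10:117688875-117710758, minus strand) had 2545 promoter fragments (2447 to 2646; percentile 94.6), 175 times the genome mean, and was seen in 52.5% of cells. *Mdm4* (chr1:132959484-133030561, minus strand) had 765 (712 to 821; percentile 70.9), seen in 19.4%. *Trp53* itself (chr11:69580359-69591873, plus strand) had 555 (510 to 603; percentile 64.7), seen in 14.5%, and its interval overlapped that of *Pmaip1* in this window. Within 1000 bases *Trp53* had 1502 (1427 to 1580), above *Mdm4* (878), *Bbc3* (1288), *Bcl2l11* (1085) and *Pmaip1* (625). That window takes in the cut sites at -975 bases described below, next to a start of *Wrap53*.

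**Figure D1:**
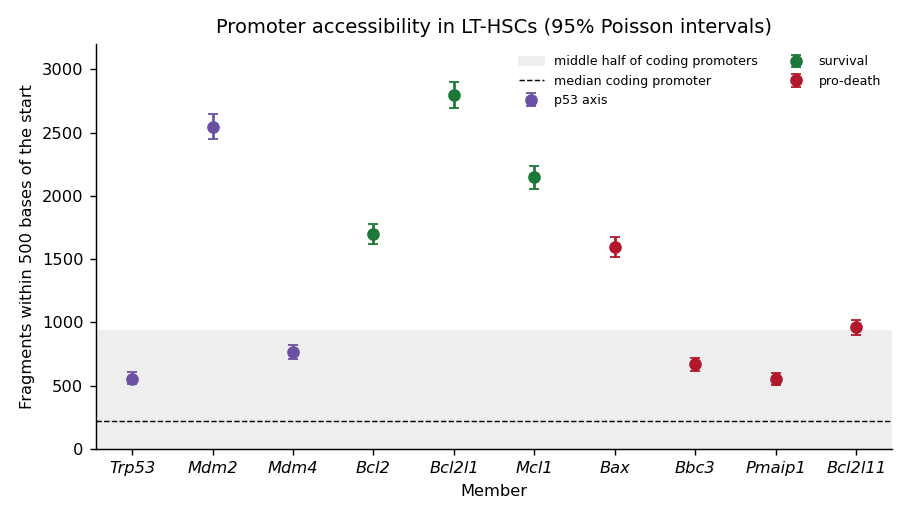
Fragments within 500 bases of the principal start (vertical axis, linear from 0) for each member (horizontal axis), with 95% Poisson intervals as bars; the dashed line is the median coding promoter (223 fragments) and the grey band spans their quartiles, 8 to 934. *Bcl2l1*, *Mdm2* and *Mcl1* stand above 2000 fragments, and *Trp53* and *Pmaip1* are the lowest at 555 and 550.

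The share of cells with a fragment rose with the depth of the cells. In the deepest of 3 equal groups of cells *Mdm2* was seen in 60.6% and in the shallowest in 42.1%, while *Pmaip1* was seen in 20.7% and 7.72%. The number of cells with a fragment was 0.892 to 0.978 times what the depths of the cells and the total at each promoter predict if fragments fall independently, beside a median of 0.923 over the 12695 coding promoters with at least 100 fragments. A fragment at 1 or more survival promoters was seen in 83.3% of cells and at 1 or more pro-death promoters in 64.5%, where independent fragments predict 84.7% and 67.3%. Both kinds were seen in 55.1% of cells (predicted 58.2%). A cell had a fragment at a median of 3 of the 10 promoters, and 98 cells had none. In barcodes not called as cells, the same windows held a smaller share of all fragments, by 1.23 times at *Trp53* to 2.37 times at *Pmaip1*, beside a median of 1.78 over open coding promoters.

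The position of the cut sites differed among the promoters. *Mcl1*, *Bax*, *Mdm2*, *Mdm4*, *Bcl2* and *Pmaip1* each had 1 peak near the annotated start. Steps counted as separate peaks if at 40% or more of the highest and 300 bases or more apart. Each also had to be the highest among the nearest few steps on either side. The highest 50-base step lay at -25 bases (upstream of the start) at *Mcl1* (957 cut sites). It lay 25 bases downstream at *Bax* (919) and at -125 bases at *Mdm2* (939). *Bcl2l1* had its highest step 275 bases downstream of the start (866 cut sites) and another 1025 bases downstream (425), where several shorter coding transcripts are annotated to start. A step of 539 cut sites 25 bases downstream of the *Bcl2l1* start lay less than 300 bases from the highest and was not counted apart. *Bbc3* had steps of 239 cut sites at -75 bases and 196 at 525 bases downstream. *Bcl2l11* had nearly equal steps of 267 cut sites at -75 bases and 284 at 1425 bases downstream.

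At *Trp53* the highest step was not at the gene's own start but at -975 bases, with 548 cut sites. The top 500-bp bin there, centred at -1.11 kb, held 1220 fragments, and the bin at the *Trp53* start held 399. *Wrap53* lies head to head with *Trp53* on the opposite strand and has coding starts in the same open site, at least one of them within 1 kb of the *Trp53* start, so the fragments cannot be assigned to either gene alone. Another step lay 1175 bases downstream, in intron 1 of *Trp53* (227 cut sites).

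**Figure D2:**
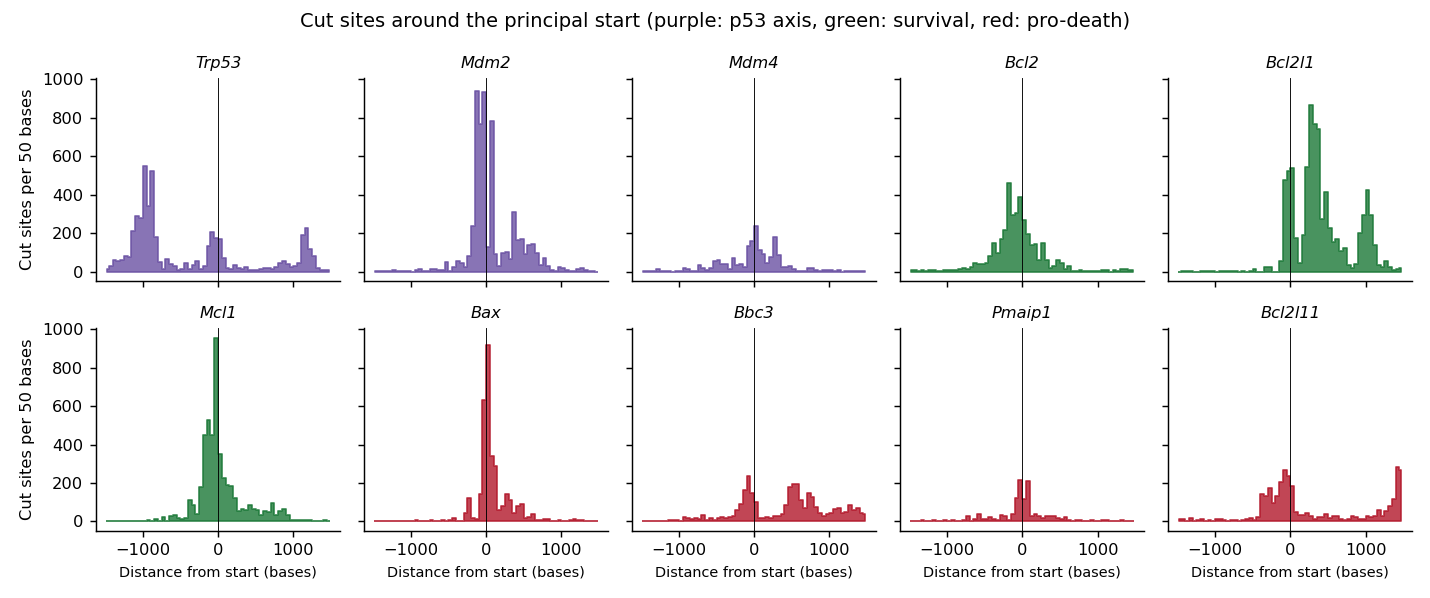
Cut sites per 50 bases (vertical axis, linear, shared) against distance from the principal start in bases (horizontal axis, transcribed direction to the right), 1 panel per member, coloured by role. Single peaks at the start in *Mcl1* and *Bax* contrast with the paired peaks of *Bbc3* and *Bcl2l11* and with the upstream peak of *Trp53* at -975 bases.

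Around the 10 genes, 225 of 2000 bins were open (11.25%), beside 2.36% of genome bins and 3.64% of bins within coding genes plus 30 kb. The share ranged from 5.07% around *Bcl2*, the longest gene, to 36.9% around *Mcl1*. Open bins joined into 74 sites: 11 at a member's own coding start, 12 at the coding start of another gene and 51 distal, meaning more than 1 kb from any coding start. Of the distal sites, 18 lay upstream of the member, 14 within its principal transcript and 19 downstream. The median top bin of these 51 was 93 fragments, beside 86 over the 40343 distal sites of the genome, and 3 of them were in the top 5% of all distal sites. All 10 members had more distal sites per 100 kb than the median coding gene (2.26).

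**Figure D3:**
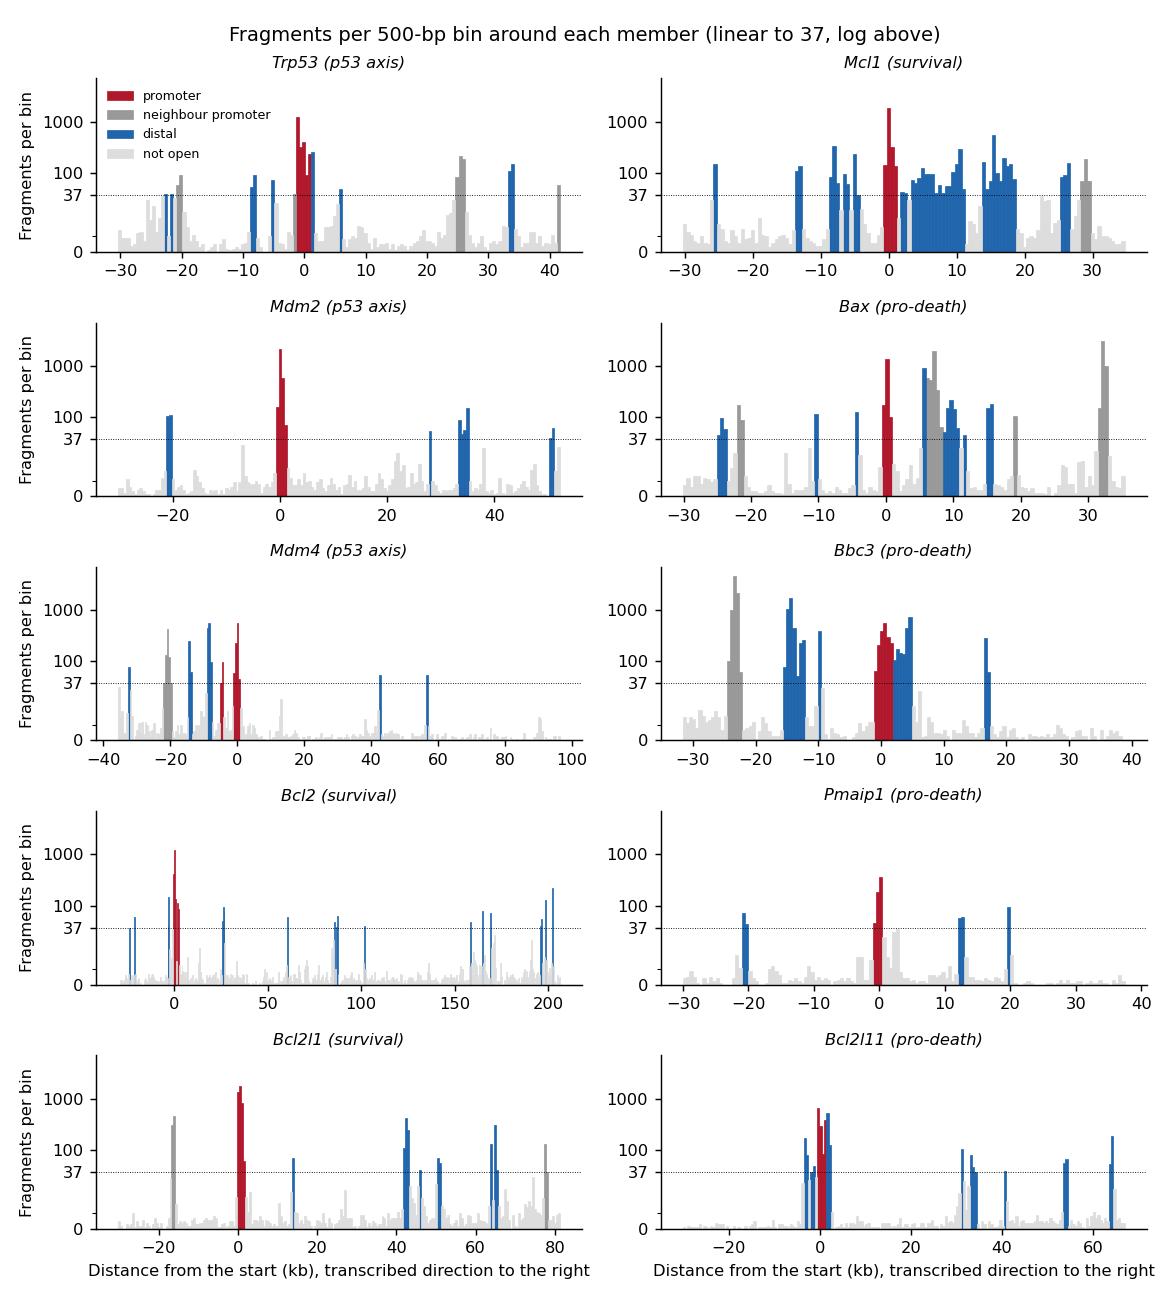
Fragments per 500-bp bin (vertical axis, linear up to 37 and logarithmic above) against distance from the principal start in kb (horizontal axis, transcribed direction to the right) for each member; the dotted line is the open threshold, red bins are open near the member's own coding start, grey near another gene's, blue distal, and pale bins are not open. *Mcl1* has 41 open distal bins on both sides of the gene, whereas *Pmaip1* has 5 open distal bins in all.

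By number, distal sites did not separate survival from pro-death genes: there were 5.59 per 100 kb around the survival genes (23 sites), 5.02 around the pro-death genes (15 sites) and 4.57 around the p53 axis (13 sites). The order of the survival and pro-death values turned under several settings, which are given in the closing section. Open distal bins are a wider set: they also include bins over 1 kb from any coding start that were joined to promoter sites. By fragments in these bins, the pro-death loci held more, 3561 per 100 kb against 1850. *Bbc3* made up 6322 of the 10632 pro-death fragments, and without it the pro-death value was 1884 per 100 kb. Joined bins around *Bax*, *Bcl2l11* and *Mcl1* held up to 901, 520 and 289 fragments. The totals therefore do not describe the distal sites alone.

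*Bbc3* had the strongest distal site of all members. The site (chr7:16294001-16297500) held 3842 fragments, with 1715 in its top bin (1634.8 to 1798.1), centred at -14.4 kb from the *Bbc3* start (negative distances are upstream), in 40.4% of cells. That bin held more than any bin at the *Bbc3* start, where the highest had 555. Of the fragments of the distal top bin, 63.9% were shorter than 120 bases, beside a median of 53.01% over the top bins of distal sites. Its 200-base summit, printed above, held 1512 fragments and has 3 GC boxes, an ETS match and a CCAAT box. Its top bin lies outside annotated GENCODE genes, and the site holds no GENCODE transcript start. RefSeq mRNA starts were not checked there. Farther upstream, the promoter of *Ccdc9* held 7979 fragments in its site, the strongest open site of any kind in these 10 regions. Within *Bbc3*, a bin in intron 3, 4.63 kb downstream of the start, held 734 fragments, more than any bin near the start, and belonged to the same run of open bins as the promoter.

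*Mcl1* had the most widely open surroundings. Open distal bins, those more than 1 kb from any coding start, numbered 41 of its 130 bins and held 55.0% of the fragments of the region, against 28.6% near its own start. Its promoter site ran from 95658001 to 95670000 on chromosome 3, well beyond the gene's annotated end at 95663176. The strongest distal site lay 15.5 kb downstream of the start with 561 fragments in the top bin (516 to 609), 15.1% of cells, and the start of an *Adamtsl4* transcript not annotated as coding lies in or within 1 kb of it. The next lay at -8.04 kb with 339. The top bin of the downstream site was 68.8% short fragments, and that of the upstream site 36.9%.

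*Bcl2l1* had its strongest distal site in intron 2, 42.5 kb downstream of the start, with 427 fragments in the top bin (387 to 469), 11.2% of cells. An AP-1 match lies in its summit. A further site 64.98 kb downstream of the start, beyond the 3′ end of the gene, held 307. *Bcl2* had the most distal sites, 13, in the longest region. That is 5.51 per 100 kb, below *Mcl1* (7.77), *Bax* (6.13) and *Trp53* (5.59). These 13 sites were weak for their number. The strongest, 202.5 kb downstream of the start and beyond the end of the gene, held 223 fragments in its top bin. Top bins of 145 and 126 fragments were found at -2.98 kb and 198.5 kb. The 7 sites in the long intron 1 of *Bcl2* held 40 to 96 in their top bins.

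Around the other pro-death genes, each separate distal site had a weaker top bin than the start. *Bcl2l11* had a second open peak 1.71 kb downstream of the start with 520 fragments in the bin, against 656 in the highest bin at the start, and its strongest separate distal site, 64.2 kb downstream, held 188 and coincides with the start of the noncoding RNA *Gm14009*. Another, 31.2 kb downstream in intron 3, held 104. *Bax* lies in a gene-dense stretch: 61.9% of the fragments of its region fell in open bins near other genes' starts, led by the *Ftl1* site (5071 fragments) and the shared *Gys1* and *Ruvbl2* site (4198). Its own strongest distal site, 15.6 kb downstream and inside *Gys1* with a further *Gys1* noncoding transcript start in or within 1 kb of it, held 181, and the other 3 held 95 to 128. A bin 5.65 kb downstream with 901 fragments lay more than 1 kb from a coding start but in the same run of open bins as the *Ftl1* site. *Pmaip1* had the fewest fragments, 1521 in the whole region (22.5 per kb, beside 23.6 around *Bcl2*), and 3 distal sites of 60 to 93 in the top bin. By share of open bins *Bcl2* was lower, with 5.07% against 5.93%. By distal sites per 100 kb *Mdm4* (3.81) and *Bbc3* (4.30) lay below *Pmaip1* (4.48).

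In the p53 axis, *Mdm4* was the only other member with a distal bin as open as its promoter. The site at -8.33 kb held 562 fragments in its top bin (516 to 610), against 553 in the bin at the *Mdm4* start, and the intervals overlapped. RefSeq places 2 lysine tRNA genes in this site, at chr1:133033962-133034034 and chr1:133034327-133034399, and the first is written in capitals in the sequence above. *Mdm2* had 4 weak distal sites, of which the strongest, 35.0 kb downstream of the start and inside *Cpm* with a further *Cpm* noncoding transcript start in or within 1 kb of it, held 151, and the next, at -20.5 kb, held 108, beside 2104 in its promoter bin. *Trp53* likewise had 4 distal sites, with 151 fragments in the top bin 33.9 kb downstream of the start and 90 in one at -8.11 kb, inside *Wrap53*.

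**Figure D4:**
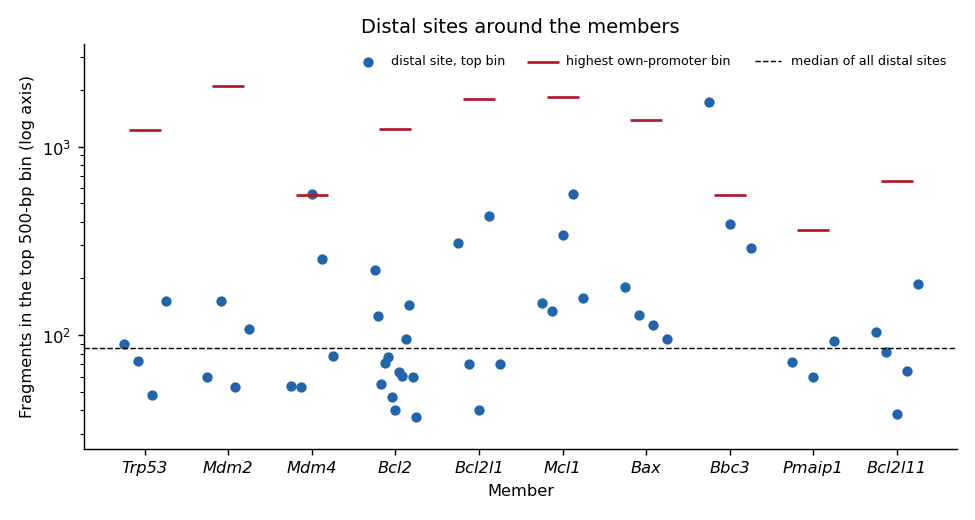
Fragments in the top 500-bp bin of each distal site (blue points; vertical log axis) by member (horizontal axis), with the highest bin at the member's own start as a red line and the median of all 40343 distal sites of the genome (86) as a dashed line. The *Bbc3* point at 1715 lies far above its promoter line, and the *Mdm4* point at 562 lies level with it.

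The p53 site was searched as a pair of sites of 10 bases, each with an exact core, a spacer of at most 3 bases and at most 3 mismatches in all, over both strands. Such matches numbered 157 in the 10 regions (15.8 per 100 kb, beside 10.2 per 100 kb of the genome), and 16 of them (10.2%) lay in open bins, around 7 members, beside 11.25% of all bins of these regions that were open. Of these, 5 lay around *Mcl1*, 5 around *Mdm4*, 2 around *Trp53* and 1 each around *Bax*, *Bbc3*, *Pmaip1* and *Bcl2l11*. The *Mcl1* matches included 2 inside its promoter site, 5.72 and 6.21 kb downstream of the start, with 88 and 96 fragments within 250 bases. 4 of the 16 stood within 250 bases upstream of an open principal start, and the other 12 had 24 to 113 fragments within 250 bases. The *Bax* match, centred at -0.19 kb, had 2 mismatches and 907 fragments within 250 bases, and is the first run of capitals in the promoter above. The *Bbc3* match, at -0.12 kb, had 3 mismatches and 408 fragments, and *Pmaip1* had one with 2 mismatches at -0.09 kb and 407 fragments. The *Trp53* match, at -0.07 kb with 3 mismatches and 404 fragments, is shown alone because the rest of that promoter overlaps an exon of *Wrap53*.
*Trp53* p53 site (chr11:69580284-69580303, plus strand): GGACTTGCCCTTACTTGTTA

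In the 300-base RefSeq promoters (250 before to 50 after the start), 3 of the 9 members with an entry held a p53 match, namely *Bax*, *Bbc3* and *Trp53*, against 1.83% of 20054 coding promoters. None of the 3 survival promoters and neither *Mdm2* nor *Mdm4* held one in this window. Of the 10 matches around *Mdm2*, none lay in an open bin. No match says only that these letters, with an exact core and at this limit of mismatches, were not in the stretch searched. None of the 51 distal top bins held a p53 match, where 5.12% of all distal top bins did.

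The other motifs are given as counts over 9 sequences beside their share of all coding promoters. The ETS motif CGGAAG was in 6 of 9 promoters (21.8% of all coding promoters), in *Bcl2l1*, *Bcl2l11*, *Mcl1*, *Mdm2*, *Mdm4* and *Trp53*. The GC box GGGCGG was also in 6 (47.9% of all), with 7 matches in *Bcl2* and 5 in *Bbc3*. The FOXO motif GTAAACA was in *Bcl2l11* and *Mdm2* (2.97% of all). CCAAT was in 3 promoters, those of *Bcl2l11*, *Mdm2* and *Trp53* (37.9% of all). The E-box CACGTG was in those of *Bax* and *Trp53* (8.06% of all). A TATA box (TATAAA) was matched at *Trp53* alone (12.1% of all), a CRE (TGACGT) at *Bcl2* alone (8.76% of all) and an AP-1 motif at *Mdm4* alone (4.65% of all). No member promoter held the RUNX motif (14.6% of all), the GATA motif AGATAA (9.42% of all) or the STAT motif TTCNNNGAA (7.76% of all). All were searched on both strands. Neighbouring GC boxes can share letters, as in the last run of capitals at *Bbc3*. In the distal top bins the AP-1 motif TGAGTCA was in 15 of 51 (29.4%, beside 12.5% of all distal top bins) and the RUNX motif TGTGGT in 11 (21.6%, beside 40.4%). The FOXO motif was in 8 (15.7%, beside 6.69%), the STAT motif in 12 (23.5%, beside 15.1%), CCAAT in 28 (54.9%, beside 45.0%) and the E-box in 6 (11.8%, beside 8.66%). The ETS motif was in 7 (13.7%, beside 12.3%), the GATA motif in 11 (21.6%, beside 23.6%), the TATA box in 9 (17.6%, beside 22.8%), the GC box in 6 (11.8%, beside 15.6%) and the CRE in 0 (beside 6.60%). These are descriptions of letters and not of binding.

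A wider list of 50 genes of the p53 and apoptosis pathways put the members in context. Of these promoters 44 were open, beside 60.9% of coding promoters, and the median held 659 fragments, beside 1278 for the members. The highest were *Cycs* (cytochrome c, 3172 fragments), *Apaf1* (the apoptosome scaffold that cytochrome c activates, 3171) and *Diablo* (an antagonist of caspase inhibitors, 2636). Only *Cycs* and *Apaf1* lay above every member, and 20 lay below every member. The lowest were *Bcl2a1a* and the p53 relative *Trp63*, each with 1 fragment, followed by *Bcl2a1b* and *Bcl2l10* with 9 each. The *Bcl2a1* genes are near-identical copies, so reads that map to more than one of them may be lost, and their values are uncertain.

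By role, the list followed the members only in part. The open counts below stand beside 60.9% of all coding promoters. All 6 genes of cytochrome c release and the caspases it activates were open, with a median of 2332 fragments. All 5 further BH3-only genes were open (median 650), from *Hrk* with 189 to *Bad* with 2070. Both pore-forming relatives of *Bax* were open but lower than *Bax*, *Bak1* with 550 and *Bok* with 222. Of 5 further survival relatives of BCL2, only *Bcl2l2* was open (345), below all 3 survival members. *Bcl2a1a*, *Bcl2a1b* and *Bcl2a1d* are among the others, and their values are uncertain for the reason given above. All 5 genes of the death receptor arm were open (median 366), as were 3 of 4 inhibitors of apoptosis (median 874), *Birc2* having 13 fragments at its principal start. All 21 p53 targets and regulators were open, with a median of 1052, from *Pidd1* with 111 to *Ppm1d* with 2464. The genes named in this paragraph beyond the 3 highest and lowest of the list were chosen after their values were seen.

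**Figure D5:**
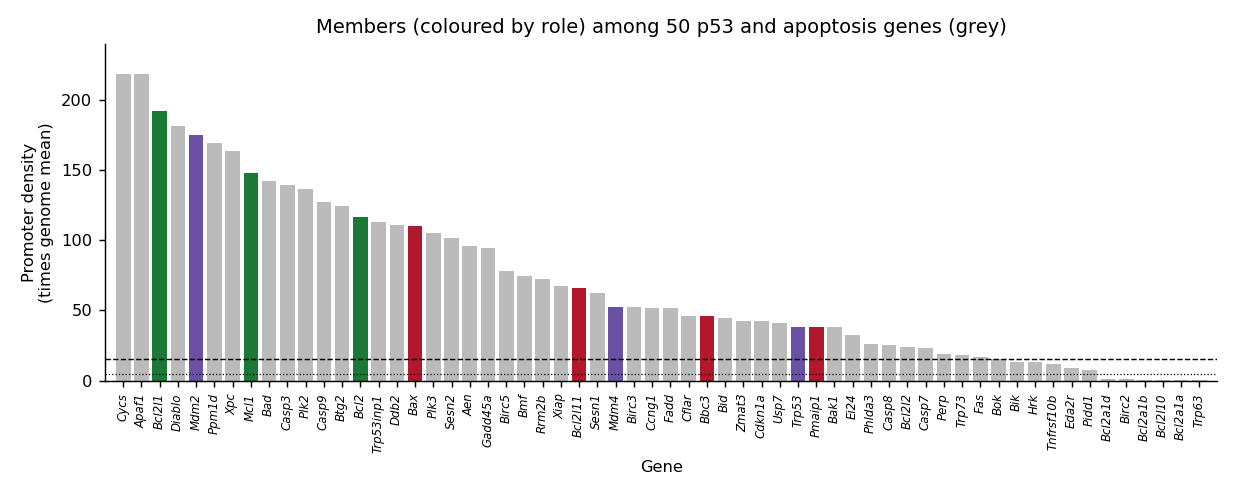
Promoter density in multiples of the genome mean (vertical axis, linear from 0) for the 10 members, coloured by role as in the plot of promoter fragments (purple p53 axis, green survival, red pro-death), and the 50 list genes in grey, in descending order; the dashed line is the median coding promoter (15.4 times) and the dotted line the open threshold of 5 times. *Cycs* and *Apaf1* exceed *Bcl2l1*, and the last 6 bars fall below the threshold.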

How the data were processed

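Sorted and permeabilised LT-HSCs were profiled by DOGMA-seq. The authors mapped the ATAC reads with Cell Ranger ARC 2.0.2 to mm10, and the fragment file they deposited lists each fragment, shifted for the transposase cut as that tool does, with its barcode and, as a count, its read pairs. A deposited table gives counts per barcode. It was used for the cell call and the number of fragments in peaks. Cells called by the authors' run with over 3000 fragments in peaks were kept. The study's further limit of 15% of fragments in peaks removed none of them; the limits it set on mitochondrial RNA, TSS enrichment, nucleosome signal and blacklist share were left aside here. No doublet caller was run. The antibody tags were not used, and RNA was not analysed here.

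Fragments were assigned by their midpoint, with GENCODE vM21 gene models and the GRCm38 genome. The principal start was chosen by APPRIS tag, then CCDS, transcript support and the most 5′ position. The promoter window was 1001 bases. Open bins were joined over at most 1 closed bin. Motifs were searched on both strands, with RefSeq promoters for 9 members. No RefSeq promoter was used for *Pmaip1*. Intervals are exact 95% Poisson (counts) or Clopper-Pearson (shares), and PCR copies were already collapsed to fragments. Counting and interval code was tested on simulated data of 21670 promoters, where 96.3% of intervals held the true value. The simulated counts were drawn from the Poisson distribution that the intervals assume. This checks the code and does not show the coverage in the real data. Python 3.11.15, numpy 2.4.6, pandas 2.3.3, scipy 1.17.1 and matplotlib 3.10.9 were used. Named items were all 10 members, the 3 highest and 3 lowest list promoters, and each member's strongest promoter and distal sites, and further distal sites at 50% or more of the strongest, which other bins named here do not meet and were chosen after their values were seen. Sequences were taken for the strongest distal sites and the promoters with a p53 match, and *Bcl2* and *Mdm2* were added for contrast. The members and lists were chosen with earlier results of these data known. Alternative cells, thresholds, windows, flanks and groupings were tried.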

Additional observations from a re-analysis of the deposited data

How the results depend on the processing

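Each of the 10 member promoters was open under all 11 settings for promoter levels, and 42 to 44 of the 50 list promoters were. Of these settings 3 cannot change a level, and under the other 8, 53 of 80 recomputed member levels stayed within the counting interval of the main value. Moves over 1.5 times were those of *Bcl2l1*, 1.95 times lower within 250 bases (from the highest member to below *Mdm2* and *Mcl1*), *Trp53*, 2.71 times higher within 1000 bases, and *Bbc3*, 1.93 times higher within 1000 bases and 2.19 times higher over all coding starts. The mean survival promoter held 2.03 times the pro-death mean within 250 bases of the start, 2.23 times within 1000 bases and 3.05 times without *Bax*. Its value lay between 2.27 and 2.41 under the other settings. The 225 open bins (11.25%, beside 2.36% of genome bins) became 304 at a threshold of 3 times the genome mean (15.2%, beside 3.55%) and 144 at 10 times (7.2%, beside 1.40%). With flanks of 10 kb there were 141 in a smaller region, a share of 11.75%.

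The ratio of survival to pro-death distal sites per 100 kb had no stable direction. It was 1.11 as reported and between 1.02 and 1.41 under the settings not named here, the highest at 3 times the genome mean, but 0.949 at 10 times the genome mean, 0.832 with 10-kb flanks, 0.981 with both cut sites counted and 0.998 with *Mdm2* and *Mdm4* placed with survival and *Trp53* with pro-death. By fragments in open distal bins the ratio was 0.520, and 0.982 without *Bbc3*. These bins include some joined to promoter sites, so both values cover a wider set than the distal sites. The cause was not tested. Leaving out *Bax* or *Bbc3* or the 9 cells over 40000 fragments, counting open bins without joining and counting distal fragments were chosen after seeing the data. No paired analysis was possible because there is a single ATAC library, which also left no replicate to leave out.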
